A study of Mus musculus with 8 samples.

Results

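The Hes and Hey genes encode the transcriptional repressors through which Notch signalling acts in neural stem cells. All 6 genes named for the family here, Hes1, Hes5, Hes6, Hey1, Hey2 and Heyl, were found by symbol among the 15538 genes measured. Listed genes were taken where present, so this cannot show whether any was lost to the low-read filter applied before deposit. The 6 genes were chosen by name, with earlier results of these data known. The libraries were made from polyadenylated RNA of primary neurospheres, floating clusters of stem and progenitor cells cultured from embryonic mouse brain. There were 4 libraries labelled Phf23-/-, a label that denotes loss of both alleles of the PHD-finger gene Phf23. The other 4 were labelled WT, which denotes both alleles intact. The labels give no strain, embryonic age, treatment or design of the Phf23 allele, and the study was set up to ask how loss of Phf23 blocks differentiation of these cells.

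When a ligand on one cell engages Notch on its neighbour, the receptor is cleaved, and its intracellular part enters the nucleus and joins the DNA-binding protein RBPJ to switch on Hes and Hey genes. Hes1 and Hes5 are the main Notch effectors of the embryonic brain: they repress proneural genes and keep progenitors undifferentiated. Hes6 is the exception in the group, since it is known to counteract Hes1 and to favour neurogenesis. Hey1, Hey2 and Heyl are related repressors, best known from the heart and blood vessels, where they also act downstream of Notch.

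The coding sequences show how the family divides. The 36 bases at or near the end of each reading frame are given because they carry the tetrapeptide that recruits Groucho corepressors in Hes proteins, which is altered in Hey proteins. Capitals mark the 4 codons, and the bases are from the GENCODE M21 transcript on the strand of the gene.
Hes1: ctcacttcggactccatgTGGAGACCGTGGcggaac
Hes5: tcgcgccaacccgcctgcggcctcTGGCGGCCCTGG
Hes6: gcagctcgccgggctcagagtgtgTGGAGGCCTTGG
Hey1: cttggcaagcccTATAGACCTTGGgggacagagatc
Hey2: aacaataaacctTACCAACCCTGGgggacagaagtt
Heyl: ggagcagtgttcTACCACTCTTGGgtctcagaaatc
Hes1, Hes5 and Hes6 encode WRPW, 2 residues from the end in Hes1 and at the very end in Hes5 and Hes6. Hey1 encodes YRPW, Hey2 YQPW and Heyl YHSW, with 7, 7 and 10 residues after them. The proteins run from 167 residues for Hes5 and 224 for Hes6 to 282 for Hes1, 299 for Hey1, 326 for Heyl and 339 for Hey2.

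The basic region, which contacts DNA, separates the same branches by a single residue. The stretch is shown for 1 Hes and 1 Hey gene, with the codon for proline in Hes5 and for glycine in Hey1 in capitals.
Hes5: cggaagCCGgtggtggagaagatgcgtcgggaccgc
Hey1: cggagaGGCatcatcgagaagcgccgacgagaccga
Hes1 and Hes6 shared the proline and Hey2 and Heyl the glycine at the corresponding codon.

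Facts of the whole set of libraries bear on every value below. Recovered depth was 18099114 to 19462516 reads in the libraries labelled Phf23-/- and 15647304 to 18241215 in those labelled WT. Phf23 itself averaged 1481 ± 108 normalised reads in the libraries labelled Phf23-/- and 798 ± 85.4 in those labelled WT (SD, n = 4 each), so the targeted gene went against its label, and all directions given here hold for the labels only. A total over the whole gene cannot show the loss of a part of it. The level of a gene also moved with the length of its transcript: the slope, in log2 units per doubling of length, was -0.24, -0.31, -0.09 and 0.04 in the libraries labelled Phf23-/- 1 to 4, and 0.26, 0.20, 0.08 and 0.06 in those labelled WT 1 to 4. Short transcripts were thus relatively high in the libraries labelled Phf23-/- 1 and 2 and relatively low in WT 1 and 2. Whether the replicates were separate cultures or animals is not stated, and the p-values reflect the spread among these 8 libraries alone.

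Hes1, Hes5, Hes6 and Hey1 were higher in the libraries labelled Phf23-/-, whereas the tests of Hey2 and Heyl, which were measured at few reads, did not pass. Hes5 differed most, at 3.23-fold, against 2.01-fold for Hes6, 1.86-fold for Hes1 and 1.33-fold for Hey1. Each member was compared with limma-trend, a linear model with variance shared across genes, on log2 of the normalised reads plus 1, and was called at a Benjamini-Hochberg false discovery rate (FDR) under 0.05 over all genes. By that test 29.6% of all genes were called, 14.8% higher and 14.8% lower in the libraries labelled Phf23-/-, against 4 of the 6 members higher and 0 lower. In bulk libraries a change in the share of expressing cells and a change in RNA per cell cannot be told apart.

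**Figure D1:**
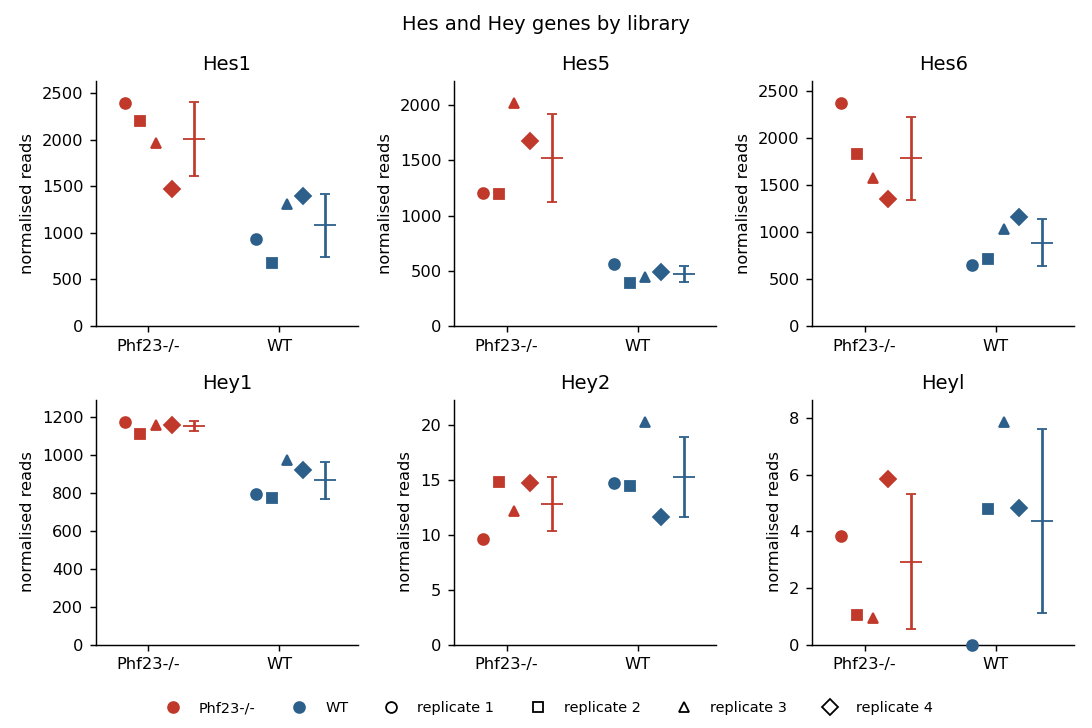
Normalised reads (vertical axes) of the 6 genes in each library, with the libraries labelled Phf23-/- in red left of those labelled WT in blue; the marker shape gives the replicate number, and the bars give the mean and SD of the 4 libraries. The groups do not overlap for Hes1, Hes5, Hes6 and Hey1 and overlap for Hey2 and Heyl, whose axes end at about 20 and 8 reads.

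Hes5 (ENSMUSG00000048001, chromosome 4, 154960923 to 154962371, plus strand, mm10) is a direct Notch target, widely read as a sign of Notch activity in neural progenitors. It had 1201, 1199, 2016 and 1677 normalised reads in libraries labelled Phf23-/- 1 to 4, against 558, 394, 441 and 493 in those labelled WT 1 to 4. The lowest library labelled Phf23-/- stood well above the highest labelled WT, and the 3rd and 4th libraries labelled Phf23-/- were the highest of all. The means were 1523 ± 398 in the libraries labelled Phf23-/- and 471.6 ± 70.8 in those labelled WT (SD, n = 4 each), giving a log2 fold change of 1.67 ± 0.172 (SE, 95% interval 1.29 to 2.04, limma-trend FDR = 0.000332). Only 53 of the 15538 genes had a larger positive log2 fold change. The gene overlaps the antisense transcript Gm20421 over 756 bases. The use of strand in the counting is not given in the sources used here, so reads of the pair cannot be told apart.

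Hes1 (ENSMUSG00000022528, chromosome 16, 30064384 to 30067796, plus strand) encodes the repressor whose oscillating expression keeps progenitors dividing. It had 2390, 2197, 1969 and 1466 normalised reads in libraries labelled Phf23-/- 1 to 4, against 931, 681, 1314 and 1396 in those labelled WT 1 to 4. The groups did not overlap, but the lowest library labelled Phf23-/-, the 4th, was close to the highest labelled WT, also the 4th. The means were 2005 ± 399 in the libraries labelled Phf23-/- and 1081 ± 335 in those labelled WT (SD, n = 4 each), with a log2 fold change of 0.93 ± 0.213 (95% interval 0.46 to 1.39, limma-trend FDR = 0.0105).

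Hes6 (ENSMUSG00000067071, chromosome 1, 91411483 to 91414038, minus strand), the known antagonist of Hes1, moved the same way as Hes1. It had 2373, 1836, 1577 and 1353 normalised reads in libraries labelled Phf23-/- 1 to 4, against 652, 713, 1031 and 1162 in those labelled WT 1 to 4. Here too the groups did not overlap, and the 1st and 2nd libraries of each genotype lay farthest apart. The means were 1785 ± 439 in the libraries labelled Phf23-/- and 889 ± 246 in those labelled WT (SD, n = 4 each), with a log2 fold change of 1.01 ± 0.201 (95% interval 0.58 to 1.45, limma-trend FDR = 0.00642).

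Hey1 (ENSMUSG00000040289, chromosome 3, 8663359 to 8667256, minus strand) was the most highly expressed of the Hey genes. It had 1175, 1113, 1157 and 1160 normalised reads in libraries labelled Phf23-/- 1 to 4, against 797, 772, 975 and 920 in those labelled WT 1 to 4. The libraries labelled Phf23-/- were nearly level, with a coefficient of variation of 2.33%, against 11.3% in those labelled WT, and all lay above every WT library. The means were 1151 ± 26.8 in the libraries labelled Phf23-/- and 866 ± 97.6 in those labelled WT (SD, n = 4 each), with a log2 fold change of 0.42 ± 0.104 (95% interval 0.19 to 0.64, limma-trend FDR = 0.0134). The call did not hold when WT 2 was left out (log2 0.36, limma-trend FDR = 0.0524).

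Hey2 and Heyl were close to the lower limit of the measurement. Hey2 (ENSMUSG00000019789, chromosome 10, 30832359 to 30842801, minus strand) had 9.63, 14.7, 12.1 and 14.7 normalised reads in libraries labelled Phf23-/- 1 to 4, against 14.7, 14.4, 20.3 and 11.6 in those labelled WT 1 to 4. The groups overlapped, with a log2 fold change of -0.23 ± 0.306 (95% interval -0.89 to 0.43, limma-trend FDR = 0.606). Heyl (ENSMUSG00000032744, chromosome 4, 123233556 to 123249875, plus strand) had 4, 1, 1 and 6 recovered reads in the libraries labelled Phf23-/- 1 to 4, against 0, 5, 7 and 5 in those labelled WT 1 to 4. A count of 0 in WT 1 allows up to 3 reads, by counting error alone. Heyl overlapped between the groups, with a log2 fold change of -0.30 ± 0.723 (95% interval -1.86 to 1.27, limma-trend FDR = 0.788). Both intervals include the log2 fold change of Hey1, 0.42, so a difference of that size was not detectable at this depth.

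Groups that did not overlap, with all libraries labelled Phf23-/- above all labelled WT, were seen for 4 of the 6 members and for 13.6% of all genes. Hes1, Hes5 and Hes6 have longest annotated transcripts of 1468, 1273 and 1573 nt, the last a retained-intron form, and Hey1 one of 2423 nt. Among the 2646 genes with transcripts of at least 1000 and under 2000 nt, 31.1% were called higher in the libraries labelled Phf23-/- and the median log2 fold change was 0.34, against 0.00 over all genes. Within that length class 0.642% of genes had a larger log2 fold change than Hes5, 4.72% a larger one than Hes6 and 6.27% a larger one than Hes1. Over all genes 19.2% had a larger one than Hey1.

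The members differed in how they followed the length slope of their libraries. Hes1 and Hes6 were highest where short transcripts were relatively high, in the libraries labelled Phf23-/- 1 and 2, and lowest where they were relatively low, in WT 1 and 2. Hes5 did the opposite within the libraries labelled Phf23-/-: its lowest levels were in 1 and 2. In these 4 libraries of steepest slope Hes1 averaged 2293 normalised reads in those labelled Phf23-/- and 806 in those labelled WT, a ratio of 2.85, and in the other 4 libraries 1717 in those labelled Phf23-/- and 1355 in those labelled WT, a ratio of 1.27. Hes6 gave ratios of 3.08 in the steepest libraries and 1.34 in the others. Hes5 averaged 1200 in those labelled Phf23-/- and 476 in those labelled WT in the steepest libraries, a ratio of 2.52, and 1847 in those labelled Phf23-/- and 467 in those labelled WT in the others, a ratio of 3.95. Hey1 gave ratios of 1.46 in the steepest libraries and 1.22 in the others.

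**Figure D2:**
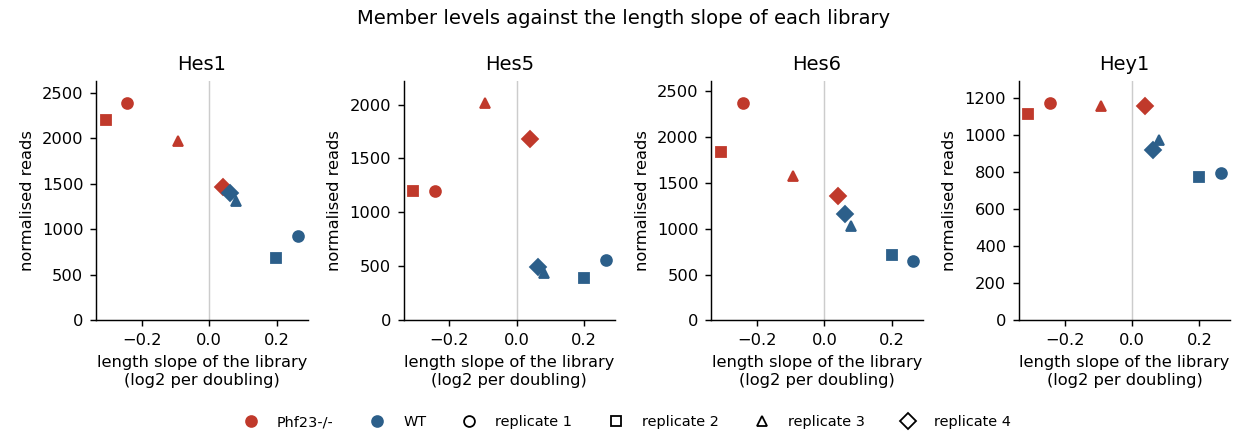
Normalised reads of Hes1, Hes5, Hes6 and Hey1 (vertical axes) against the length slope of each library (horizontal axis, log2 units per doubling of transcript length), with libraries labelled Phf23-/- in red, those labelled WT in blue and the replicate number as the marker shape. Hes1 and Hes6 are highest at the negative slopes of Phf23-/- 1 and 2 and lowest at the positive slopes of WT 1 and 2, whereas Hes5 is highest in Phf23-/- 3 and 4, whose slopes are near 0.

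Fits that take the length slope into account left different members called. With a loess trend on transcript length and GC content subtracted from each library, only Hes6 was called among the members (log2 0.44 ± 0.0911, limma-trend FDR = 0.00514), where 10.4% of all genes were called higher. Hes1 was at 0.61 ± 0.198 (FDR = 0.0673), Hey1 at 0.22 ± 0.0805 (FDR = 0.0722) and Hes5 at 0.98 ± 0.346 (FDR = 0.0963) in that fit. When each library's length slope entered as a covariate, only Hes5 was called (log2 2.12 ± 0.218, limma-trend FDR = 0.000435), where 0.656% of all genes were called higher, and Hes1, Hes6 and Hey1 were at 0.20, 0.28 and 0.31 (FDR = 0.849, 0.678 and 0.434). All slopes of the libraries labelled Phf23-/- (at most 0.04) lay below all of those labelled WT (at least 0.06). Slope and genotype therefore cannot be fully told apart in that fit. Without the 4 libraries of steepest slope, which leaves the 3rd and 4th of each genotype, Hes5 was at 1.98, Hes6 at 0.42 and Hes1 at 0.33 on the log2 scale, all called, where 4.61% of all genes were called higher. Hey1 was at 0.29 in that fit (limma-trend FDR = 0.105), and the FDRs of a fit with so few libraries rest mostly on variance shared across genes.

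The subtracted trend removed the separation of Hes5 and Hey1 but not that of Hes6 or Hes1. On the trend-subtracted log2 scale Hes5 was at 9.69, 9.69, 10.76 and 10.64 in the libraries labelled Phf23-/- 1 to 4, against 9.85, 9.23, 8.87 and 8.91 in those labelled WT 1 to 4. The 1st and 2nd libraries labelled Phf23-/- then lay below WT 1, while the 3rd and 4th lay more than 1 log2 unit above WT 3 and 4. Hes6 ran from 10.33 to 10.77 in the libraries labelled Phf23-/- and from 9.97 to 10.12 in those labelled WT, without overlap. Hes1 ran from 10.57 to 10.97 in the libraries labelled Phf23-/- and from 9.61 to 10.53 in those labelled WT. Its groups did not overlap either, but the margin was narrow and Hes1 was not called in that fit. The share of all genes without overlap on this scale was not counted.

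**Figure D3:**
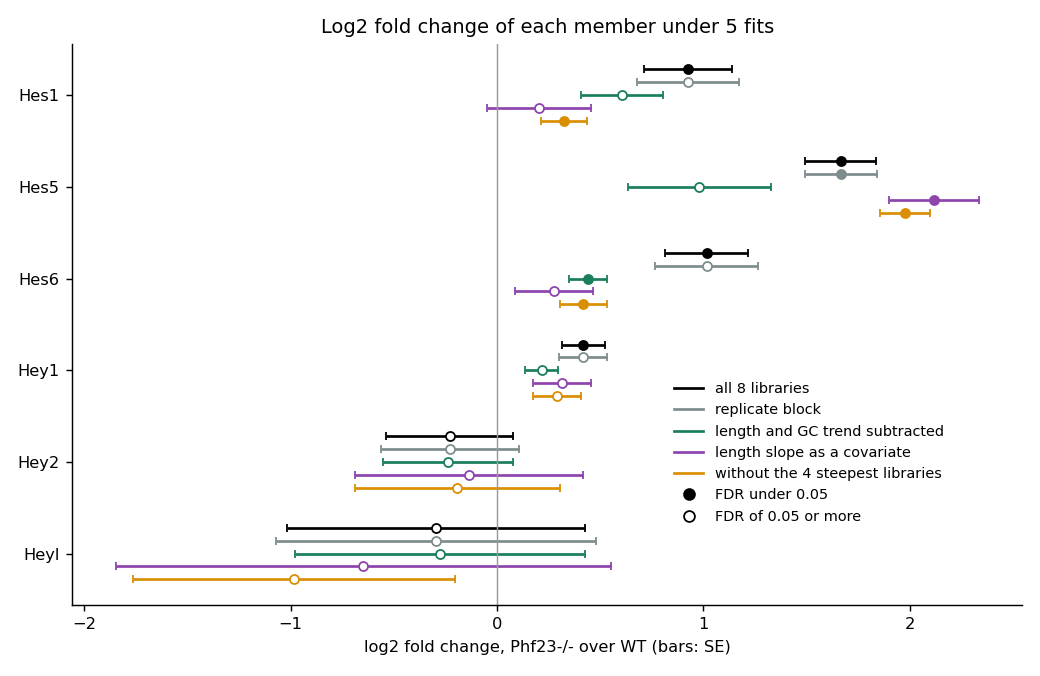
Log2 fold change of each member, libraries labelled Phf23-/- over those labelled WT (horizontal axis), under 5 fits shown by colour, with bars of 1 SE; filled points have an FDR under 0.05. Hes5 lies between 0.98 and 2.12 in all 5 fits, whereas Hes1 lies between 0.20 and 0.93 and Hey2 and Heyl are below 0 in all 5.

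The balance of Hes5 against the other members was tested per library. The log2 ratio of Hes5 to Hey1 was 0.03, 0.11, 0.80 and 0.53 in the libraries labelled Phf23-/- 1 to 4, against -0.51, -0.97, -1.14 and -0.90 in those labelled WT 1 to 4. The groups did not overlap, and the ratio was higher by 1.25 in the libraries labelled Phf23-/- (two-sided exact permutation p = 0.0286, the smallest that 4 against 4 libraries can give, 0.0714 adjusted over 5 ratios). The ratio of Hes5 to Hey2 was higher by 1.90, with the same p and adjusted p by the exact permutation test, and that to Heyl by 1.96 (exact permutation p = 0.0857, adjusted 0.143). No ratio passed after adjustment. Those to Hey1 and Hey2 already had the smallest possible p, so their failure to pass cannot show a lack of difference. With the length and GC trend subtracted the groups overlapped for the ratio to Hey1, and the differences were 0.76 for Hey1, 1.22 for Hey2 and 1.25 for Heyl (exact permutation, adjusted p = 0.286, 0.286 and 0.321).

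The ratios of Hes5 to Hes1 and Hes6 overlapped between the groups. The log2 ratio of Hes5 to Hes1 was -0.99, -0.87, 0.03 and 0.19 in the libraries labelled Phf23-/- 1 to 4, against -0.74, -0.79, -1.57 and -1.50 in those labelled WT 1 to 4 (difference 0.74, two-sided exact permutation p = 0.171, adjusted 0.2). Libraries 1 and 2 of both genotypes had like ratios, and libraries 3 and 4 lay far apart. The difference was -0.17 in the 4 libraries of steepest length slope and 1.65 in the other 4. The ratio to Hes6 differed by 0.65 over all libraries (exact permutation p = 0.2, adjusted 0.2), by -0.26 in the steepest and by 1.56 in the others. With the trend subtracted the differences were 0.37 for Hes1 and 0.54 for Hes6.

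Levels of different genes were compared per kilobase of the longest annotated transcript. In the libraries labelled Phf23-/-, Hes1 had 1366 ± 272, Hes5 1197 ± 313 and Hes6 1135 ± 279 normalised reads per kilobase, neighbours that did not differ beyond their SD, followed by Hey1 at 475 ± 11.1. In those labelled WT the order was Hes1 at 736 ± 228, Hes6 at 565 ± 156, Hes5 at 370.4 ± 55.6 and Hey1 at 357 ± 40.3 (SD, n = 4 each). Compared within each library by this length, Hes1 lay above Hes6 in every library of both genotypes. Hes5 and Hey1 changed order among the libraries labelled WT. Hey2 followed with 5.01 ± 0.957 per kilobase in the libraries labelled Phf23-/- and 5.98 ± 1.42 in those labelled WT, and Heyl with 0.645 ± 0.525 in the libraries labelled Phf23-/- and 0.965 ± 0.718 in those labelled WT. Per length of all annotated exons joined, the order in the libraries labelled Phf23-/- was Hes5 at 1118 ± 292, Hes6 at 987 ± 243 and Hes1 at 984 ± 196, so the place of Hes1 depends on the transcript taken. Among 15531 genes ranked by level per kilobase, Hes5 was 1047th in the libraries labelled Phf23-/- and 3505th in those labelled WT, the largest shift in rank among the members.

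The members summed to 4570, 4071, 4410 and 3662 normalised reads per kilobase in the libraries labelled Phf23-/- 1 to 4, against 1822, 1551, 2309 and 2462 in those labelled WT 1 to 4. The sum was 2.05-fold higher, with no overlap. Hes5 made up 20.6%, 23.1%, 35.9% and 36.0% of it in the libraries labelled Phf23-/- 1 to 4, against 24.1%, 19.9%, 15.0% and 15.7% in those labelled WT 1 to 4. Its share was thus alike in libraries 1 and 2 of both genotypes and higher in the libraries labelled Phf23-/- 3 and 4. Hey1 made up 11.4% ± 1.12 in the libraries labelled Phf23-/- and 17.9% ± 2.10 in those labelled WT (SD, n = 4 each), and Hes1 and Hes6 together more than the rest in every mean, with 32.5% and 27.0% in the libraries labelled Phf23-/- and 35.5% and 27.6% in those labelled WT.

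**Figure D4:**
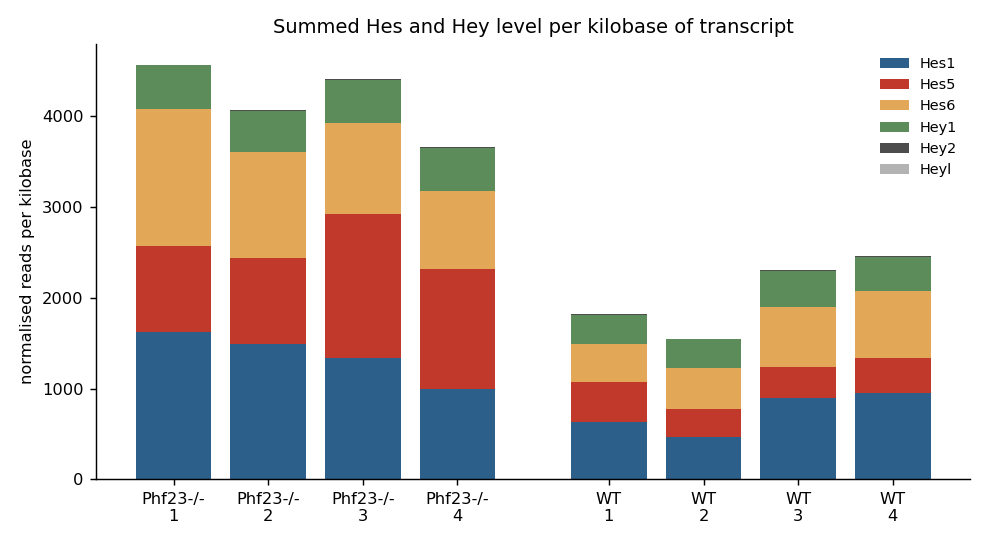
Stacked bars of the normalised reads of the 6 genes per kilobase of the longest annotated transcript (vertical axis) in each library, with the libraries labelled Phf23-/- left of those labelled WT. The sum is 3662 to 4570 in the libraries labelled Phf23-/- and 1551 to 2462 in those labelled WT, and Hes5, in red, makes up 36.0% of the 4th bar labelled Phf23-/-.

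The Hes5 promoter is shown because Hes5 had the largest difference among the members and RBPJ, the DNA-binding partner of Notch, is known to bind there. The Hey2 promoter is shown beside it as that of a member whose test did not pass. Each is the 250 bases before the RefSeq start on the strand of the gene, from RefSeq GRCm38.p6, which is the assembly of mm10. The RefSeq start of Hey2 lies just inside the gene as GENCODE annotates it, so the last bases of that window belong to the GENCODE gene. Capitals mark the RBPJ motif GTGGGAA and its reverse complement TTCCCAC.
Hes5, chr4:154960673-154960922, plus strand: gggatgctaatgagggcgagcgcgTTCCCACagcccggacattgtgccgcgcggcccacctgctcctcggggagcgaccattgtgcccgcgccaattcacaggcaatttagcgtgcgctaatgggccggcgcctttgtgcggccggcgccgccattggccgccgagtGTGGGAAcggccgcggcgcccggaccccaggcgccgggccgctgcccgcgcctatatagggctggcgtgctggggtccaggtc
Hey2, chr10:30842784-30843033, minus strand: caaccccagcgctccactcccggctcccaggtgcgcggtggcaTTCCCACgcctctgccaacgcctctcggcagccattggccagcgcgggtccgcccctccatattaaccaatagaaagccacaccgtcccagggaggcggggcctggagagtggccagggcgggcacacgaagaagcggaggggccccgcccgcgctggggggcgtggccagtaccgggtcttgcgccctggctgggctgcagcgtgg
Hes5 held 2 matches, at -226 to -220 on the opposite strand and at -83 to -77 on the strand of the gene, counted from the RefSeq start. Hey2 held 1, at -207 to -201 on the opposite strand, and both annotated starts of Hes6 held 0. Of 32851 mouse promoters of the same length, 5.42% held a match and 0.0548% held matches on both strands. The shorter form TGGGAA, which every GTGGGAA contains, was in 21.6% of the promoters, on both strands in 1.28%, and added no match in these genes. A match is a string of letters and not a measured binding site. Hes1, Hey1 and Heyl were not matched in the promoter table.

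Genes that carry the Notch signal up to the Hes and Hey promoters did not move in a common direction. Of the 48 genes listed for ligands, receptors, processing, the nuclear complex and inhibitors, all of them measured, 9 were higher, 10 were lower and 29 did not pass, where 14.8% of all genes were higher and 14.8% lower. Their median log2 fold change was -0.09, against 0.00 over all genes. With the length and GC trend subtracted, 3 were higher, Dlk1, Notch3 and Fbxw7, and 1 was lower, Aph1b, where 10.4% of all genes were higher and 7.81% lower. With the length slope as a covariate Jag1 alone was called, and it was higher, where 0.656% of all genes were higher and 0.438% lower. Without the 4 libraries of steepest slope Jag1, Notch3 and Numb were higher and Aph1b and Kdm5a lower, where 4.61% of all genes were higher and 4.54% lower.

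Among ligands and receptors, 1 of 8 ligands was higher and 1 of 4 receptors lower, where 14.8% of all genes were higher and 14.8% lower. Dlk1, a ligand-like protein without the Notch-activating domain of the Delta family, averaged 181.9 ± 13.5 normalised reads in the libraries labelled Phf23-/- and 102.7 ± 20.8 in those labelled WT (log2 0.84, limma-trend FDR = 0.00614). Dll1, the main Delta ligand of differentiating progenitors and itself repressed by Hes1, had 803, 553, 858 and 1025 in the libraries labelled Phf23-/- 1 to 4, against 845, 930, 1040 and 1120 in those labelled WT 1 to 4, and the groups overlapped (log2 -0.31, FDR = 0.183). Notch2, with a longest transcript of 10500 nt, fell by 0.55 on the log2 scale (FDR = 0.0217). It was at -0.13 with the length and GC trend subtracted (FDR = 0.252) and at 0.03 with the length slope as a covariate (FDR = 0.971). Notch1, the main receptor of neural stem cells, had 2361, 1743, 4109 and 5346 normalised reads in libraries labelled Phf23-/- 1 to 4, against 5634, 4724, 4353 and 4482 in those labelled WT 1 to 4 (log2 -0.63, FDR = 0.102). It was lowest in the libraries labelled Phf23-/- 1 and 2, where long transcripts were relatively low, and the 3rd also lay below every WT library. The longest transcript of Notch1 has 9488 nt, and the part of length in this difference was not tested. Notch3 was at 0.38 (FDR = 0.0894), and at 0.58 once the length and GC trend was subtracted (FDR = 0.00301).

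Genes that modify the receptor and ligands gave the most calls in the higher direction, 5 of 8, with 1 lower. Over all genes 14.8% were higher and 14.8% lower. The Fringe glycosyltransferases, which tune how Notch answers to Delta and Jagged ligands, were all called: Mfng at log2 0.74, Rfng at 0.54 and Lfng at 0.52 (limma-trend FDR = 0.0152, 0.00861 and 0.032). The ubiquitin ligases Mib2 and Neurl1a, which promote ligand endocytosis, were higher by 0.44 and 0.36, and Pofut1, which adds fucose to Notch, fell by 0.32. None of the 8 was called in the trend-subtracted or covariate fit. Of 9 genes for the cleavage of Notch, 2 were higher and 2 lower. These were the gamma-secretase subunits Psenen at 0.63 and Aph1a at 0.28, both higher, Aph1b, which fell by 0.72, and the protease Adam17, which fell by 0.34. Psenen has a longest transcript of 708 nt and Aph1b one of 5102 nt.

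In the nuclear complex 0 of 8 genes were higher and 3 were lower, where 14.8% of all genes were higher and 14.8% lower. The coactivator Maml2 fell by 0.47 on the log2 scale, and the acetyltransferases Ep300 and Kat2b fell by 0.51 and 0.44 (limma-trend FDR = 0.0173, 0.03 and 0.0327). With the trend subtracted they were at -0.138, -0.056 and -0.235 (FDR = 0.235, 0.684 and 0.126). None was called with the covariate or without the 4 steepest libraries either. Rbpj averaged 1194 ± 88.7 normalised reads in the libraries labelled Phf23-/- and 1508 ± 269 in those labelled WT (log2 -0.32, FDR = 0.0735). With the trend subtracted it was at -0.01. Of 11 inhibitors and RBPJ corepressors, 1 was higher and 3 lower. Rita1, which exports RBPJ from the nucleus, was higher by 0.78 (FDR = 0.00909), and the corepressors Kdm5a and Spen and the ubiquitin ligase Itch fell by 0.78, 0.64 and 0.47. The transcripts of Kdm5a and Spen, at 10944 and 12299 nt, are among the long ones and that of Rita1, at 1668 nt, among the short ones.

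**Figure D5:**
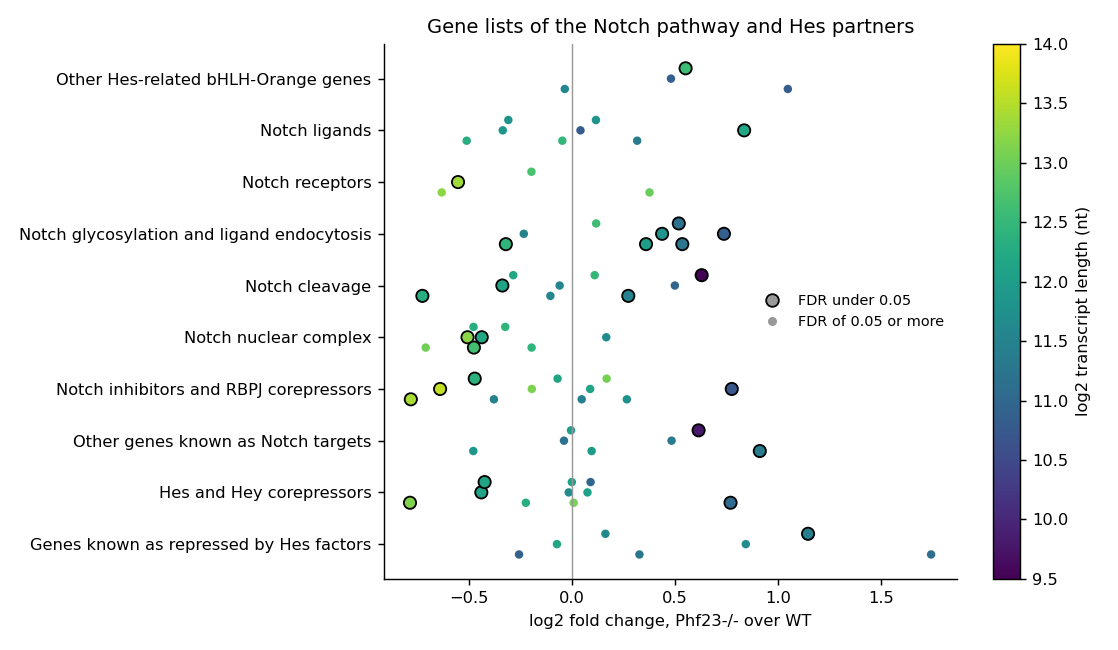
Log2 fold change, libraries labelled Phf23-/- over those labelled WT (horizontal axis), of the genes of each list (rows); large outlined points have an FDR under 0.05, and the colour gives log2 of the longest transcript length in nt. Calls lie on both sides of 0, the higher ones mostly at short transcripts such as Psenen (708 nt) and the lower ones at long ones such as Spen (12299 nt).

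Of 7 other genes known as Notch targets, 2 were higher and 0 lower, where 14.8% of all genes were higher and 14.8% lower. Gfap, the astrocyte filament gene, averaged 535.6 ± 76.3 normalised reads in the libraries labelled Phf23-/- and 283 ± 30.7 in those labelled WT (log2 0.91, limma-trend FDR = 0.00165). Fabp7, the fatty acid-binding protein of radial glia, was higher by 0.62 (FDR = 0.00923). Both were also higher in the trend-subtracted fit, in which Myc fell by 0.26 (FDR = 0.0474), and neither was called with the length slope as a covariate (FDR = 0.108 for Gfap and 0.658 for Fabp7). Without the 4 libraries of steepest slope both were called, Gfap at 0.675 (limma-trend FDR = 0.000223) and Fabp7 at 0.339 (FDR = 0.0306), where 4.61% of all genes were called higher. Ccnd1, a cyclin of the G1 phase, was at -0.48 (FDR = 0.0592). Nrarp, a feedback inhibitor induced by Notch, was at 0.49 (FDR = 0.0624), and Dtx1 was at 0.10 (FDR = 0.581).

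Of the 6 other genes of the Hes-related family, 4 were measured and 1 was higher. Among all genes 14.8% were higher and 14.8% lower. Bhlhe41, a repressor of the circadian clock, averaged 518.6 ± 26.3 in the libraries labelled Phf23-/- and 360.7 ± 86.2 in those labelled WT (log2 0.55, limma-trend FDR = 0.0207). It was also called with the trend subtracted (log2 0.86), but not with the covariate (0.29, FDR = 0.712), without the 4 steepest libraries (0.28, FDR = 0.209), or when any of Phf23-/- 1, Phf23-/- 3, WT 1 and WT 2 was left out. Hes7, the segmentation-clock gene, averaged 6.62 ± 3.21 in the libraries labelled Phf23-/- and 2.50 ± 0.927 in those labelled WT (log2 1.05, FDR = 0.112). Of 10 corepressors that Hes and Hey proteins recruit, Tle5 alone was higher, at 12080 ± 2560 in the libraries labelled Phf23-/- and 7107 ± 1650 in those labelled WT (log2 0.77, FDR = 0.0107). It was at 0.43 with the trend subtracted (FDR = 0.0112), 0.05 with the covariate (FDR = 0.931) and 0.25 without the 4 steepest libraries (FDR = 0.128). Tle5, listed as Aes in the annotation, is the short Groucho protein that lacks the domain for silencing. Ncor1, Tle4 and Sirt1 fell by 0.78, 0.42 and 0.44, and Tle1, the most studied Groucho partner of Hes1, was at 0.00 (FDR = 0.996).

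Of 10 genes known as repressed by Hes factors, 7 were measured, 1 was higher and 0 were lower. Among all genes 14.8% were higher and 14.8% lower. Neurod1, a proneural factor of neurons, had 132, 183, 148 and 129 normalised reads in libraries labelled Phf23-/- 1 to 4, against 70.7, 58.6, 65.3 and 68.8 in those labelled WT 1 to 4. The groups did not overlap, and the log2 fold change was 1.15 ± 0.164 (limma-trend FDR = 0.00166), and 1.19 with the length and GC trend subtracted (FDR = 0.000211). With the length slope as a covariate it was at 0.93 and not called (FDR = 0.117). Without the 4 libraries of steepest slope it was at 1.03 and called (limma-trend FDR = 0.00047), where 4.61% of all genes were called higher. Cdkn1c, a cell cycle inhibitor, was at -0.26 (FDR = 0.382) and fell by 0.68 in the trend-subtracted fit (FDR = 0.0432). Neurog2 had 13 recovered reads over the libraries labelled Phf23-/- and 0 over those labelled WT (FDR = 0.0778).

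Cell type markers were called by the same limma-trend test, in which 14.8% of all genes were higher and 14.8% lower. The 9 neural stem cell markers were all measured, and 3 of them were called higher. Their summed level was 154500 to 197100 normalised reads in the libraries labelled Phf23-/- and 134000 to 144300 in those labelled WT. Most of it came from Vim and Fabp7. The 6 oligodendrocyte lineage markers, all measured and 4 of them called higher, summed to 17760 to 19340 in the libraries labelled Phf23-/- and 14590 to 19520 in those labelled WT, mostly from Olig2. The 5 astrocyte markers, with 2 higher and 2 lower, summed to 3758 to 4182 in the libraries labelled Phf23-/- and 4699 to 5266 in those labelled WT. The 5 neuron markers, with 1 higher, summed to 691 to 777 in the libraries labelled Phf23-/- and 678 to 851 in those labelled WT. Among the neuron and oligodendrocyte markers, the lowest means over the 8 libraries were 1.79 for Stmn2, 4.88 for Mag and 2.43 for Mog. Of 6 microglia markers P2ry12 alone was measured, with 14.4 to 17.9 in the libraries labelled Phf23-/- and 15.7 to 48.4 in those labelled WT. Of 6 endothelial markers, cells in which Hey1 and Hey2 are well expressed, 4 were measured and 1 was higher, with a sum of 67.4 to 89.0 in the libraries labelled Phf23-/- and 36.0 to 73.9 in those labelled WT. Of 6 mural markers 3 were measured and 1, Cspg4, was lower, with a sum of 1171 to 1813 in the libraries labelled Phf23-/- and 2290 to 2467 in those labelled WT, without overlap and mostly from Cspg4, which oligodendrocyte progenitors also express. The 3 ependymal markers, with 1 higher, summed to 521 to 577 in the libraries labelled Phf23-/- and 334.7 to 571.6 in those labelled WT. The part of each in the differences of the Hes and Hey genes was not tested.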

How the data were processed

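The tools named in the submitters' processing notes are STAR 2.7.1a and DESeq2 1.38.3, with fastp 0.23.4 and FastQC 0.12.1, and the build is mm10. For the read counter, annotation and use of strand, nothing is given in the sources used here. Signal values as deposited are gene read counts that the authors divided by 1 size factor per library: whole reads were recovered for 100% of values at a tolerance of 0.0001 reads. Of 15602 rows, 64 repeats were dropped, leaving 15538 genes, the lowest with 11 reads in all. Symbols, lengths and GC content are those of GENCODE M21, matched by identifier for 15535 genes, and coordinates are 1-based.

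The test was limma-trend (limma 3.58.1, R 4.3.3) with robust empirical Bayes on log2(value + 1), genotype as the only term, two-sided and adjusted by Benjamini-Hochberg over all genes. Log2 fold changes run Phf23-/- over WT and understate changes of low genes. The edgeR test (edgeR 4.0.16) planned for raw counts was an alternative on the recovered reads, with TMM or the deposited size factors, as was DESeq2 1.42.0. The other alternatives were library size only, TMM in limma, a replicate block, a pseudocount of 0.1, each library left out, a minimum mean of 10 and 3 for transcript length. These were a loess trend (span 0.3) on length and GC content subtracted from each library, the length slope (13265 genes with a mean of at least 10) as a covariate, and the 4 steepest libraries left out. Ratios were compared by two-sided exact permutation tests. The rule for named genes took all 6 members, up to 4 genes of lowest FDR and any called gene of each list. Rbpj, Dtx1, Myc, Tle1, Cdkn1c, Jag1, Fbxw7 and Numb fall outside it and were named after their values were seen. A gene that the rule would name is not reported here. The members and lists were chosen with earlier results of these data known.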

Additional observations from a re-analysis of the deposited data

How the results depend on the processing

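The direction of Hes1, Hes5, Hes6 and Hey1 was the same under every alternative run, and all 4 were called with edgeR (TMM or the deposited size factors), DESeq2, library size only, TMM in limma, a pseudocount of 0.1 and a minimum mean of 10. Those alternatives called from 1827 genes (library size only) to 2614 genes (DESeq2) higher among all genes. Calls were lost with the length and GC trend subtracted for Hes5 (log2 0.98), Hes1 (0.61) and Hey1 (0.22), and with the length slope as a covariate for Hey1 (0.31), Hes6 (0.28) and Hes1 (0.20). Hey1 (0.29) was also lost without the 4 libraries of steepest slope. The cause was not tested. Leaving out each library in turn gave log2 fold changes of 1.52 to 1.77 for Hes5, 0.87 to 1.16 for Hes6, 0.72 to 1.07 for Hes1, 0.36 to 0.48 for Hey1, -0.34 to -0.09 for Hey2 and -0.98 to 0.067 for Heyl, whose sign turned without WT 3. Heyl was at 0.13 with a pseudocount of 0.1 and at -0.57 with DESeq2, which gave no adjusted p, and had no value with edgeR or a minimum mean of 10.

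Same-numbered libraries deviated in opposite directions (correlations -0.33, -0.13, -0.19 and -0.29). So did Phf23-/- 1 and WT 2 (-0.19) and Phf23-/- 2 and WT 1 (-0.25), libraries of steep length slope. Whether the replicate numbers pair the libraries thus cannot be told from these values. With a replicate block Hes5 was called (FDR = 0.022), whereas Hes1 (log2 0.93, FDR = 0.0629), Hes6 (1.01, FDR = 0.0582) and Hey1 (0.42, FDR = 0.0654) were not. The block left 151 genes called higher and 182 lower, with 0 and 0 in the Notch lists. All-gene calls were 102 higher and 68 lower with the covariate, 717 and 705 without the 4 steepest libraries, and 1213 lower with the trend subtracted. They were 948 to 2919 higher and 936 to 2942 lower with 1 library left out. The Notch lists gave 3 higher and 1 lower with the trend, 1 and 0 with the covariate, 3 and 2 without the 4 libraries, and 5 to 10 higher and 2 to 14 lower with 1 library left out. Ratios were not retested with a library left out. Depth limits Hey2 and Heyl, with 52 and 12 recovered reads over the libraries labelled Phf23-/- and 60 and 17 over those labelled WT.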

Other observations

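The genes whose level over the 8 libraries was most like that of Hes1 and of Hes5 were different ones. Among the 10530 genes that averaged 100 normalised reads or more, the 5 most like Hes1 by Pearson correlation of log2 values were Tbrg4 (0.992), Ehd4 (0.988), Id1 (0.987), Uck1 (0.985) and Emc10 (0.984). Id1, an inhibitor of basic helix-loop-helix factors, averaged 715.6 ± 145 normalised reads in the libraries labelled Phf23-/- and 336.9 ± 111 in those labelled WT (SD, n = 4 each). The 5 most like Hes5 were Megf11 (0.986), Lhfpl2 (0.973), Glud1 (0.972), Ndrg4 (0.972) and Mn1 (0.968). Megf11 averaged 1355 ± 141 in the libraries labelled Phf23-/- and 745.6 ± 29.4 in those labelled WT. Within the family, Hes6 ranked 166th in likeness to Hes1 (0.955), Hey1 763rd (0.914) and Hes5 2852nd (0.738). In likeness to Hes5, Hey1 ranked 222nd (0.866), Hes1 940th (0.738) and Hes6 1006th (0.729). The libraries share genotype, depth and the length slope, so these values are a description.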
